A study of Mus musculus with 20 samples.

Results

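The genes described here are 9 genes named for lipid-associated macrophages: Gpnmb, Trem2, Spp1, Cd9, Cd63, Lgals3, Pla2g7, Atp6v0d2 and Cd44. They were taken by symbol from the 55401 gene IDs of the count table, and all 9 were found and passed the filter on low counts that left 14542 genes. They were chosen with their values in these libraries known, so their difference between the diets is given as a description, with no test. The samples were livers of C57BL/6 mice, all labelled as genotype WT, fed a high-fat diet for 12 weeks (HFD, 10 libraries; 60% fat, 20% carbohydrate and 20% protein) or ordinary chow (10 libraries), from which total RNA was sequenced. The study's design speaks of 1 chow group and 3 HFD groups, whereas the labels put all HFD libraries in 1 group, so a difference among those 3 groups would lie within the HFD values. The labels used here give neither age nor sex and do not say that each library is a separate mouse, so p-values measure the spread between these libraries.

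Lipid-associated macrophages are tissue macrophages that take up and break down lipid and cell debris, and in fatty liver they gather where hepatocytes are loaded with fat or dying. TREM2 is their lipid-sensing surface receptor, which signals through the adaptor TYROBP and the kinase SYK, and many of the other genes encode proteins of the lysosome, of the cell surface or of the secretions of such cells. Most of the 9 genes are not restricted to macrophages: bile duct cells make Spp1, and many cell types make Cd9, Cd63, Lgals3 and Cd44.

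Total counts ranged from 20111896 to 90033879 in HFD libraries and from 34727227 to 49065587 in chow libraries. HFD 1 and HFD 2 stood apart, with 75.6% and 94.4% of their counts from the mitochondrial genome, which left 2237670 and 2860976 other counts. Levels are given in CPM, counts scaled to a library of 1e+06 with factors from the trimmed mean of M values (TMM). HFD 6 stood apart in Apoe, the lipoprotein ligand made by hepatocytes and macrophages, at 10124 CPM, against 15.7 to 819 CPM in the other HFD libraries and 12739 to 17328 CPM in chow libraries. Apoe in 9 of the 10 HFD libraries thus stood far below the chow libraries although all 20 carry the label WT, and a genotype difference between the groups, if there was one, cannot be told apart from the diet in any comparison here. HFD 6 was also lowest in Clec4f, a defining Kupffer cell gene, at 25.3 CPM, against 130 to 316 CPM in the other HFD libraries and 102 to 203 CPM in chow libraries. The summed level of the hepatocyte markers was 17102 to 79827 CPM in HFD libraries, lowest in HFD 2, and 69957 to 108849 CPM in chow libraries. Results that rest on these libraries are given with and without them.

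As a group the genes were far higher in HFD livers. In 7 of the 9, every HFD library lay above every chow library, and the exceptions were Spp1 and Atp6v0d2. Such complete separation upward was seen in 2.39% of all tested genes; since the genes were chosen on this contrast, nothing is read from their count. Their log2 changes ran from 0.59 to 9.21 with a median of 2.96, beside a median of 0.02 over all tested genes. In bulk RNA, more cells of a type and more RNA per cell cannot be told apart.

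**Figure D1:**
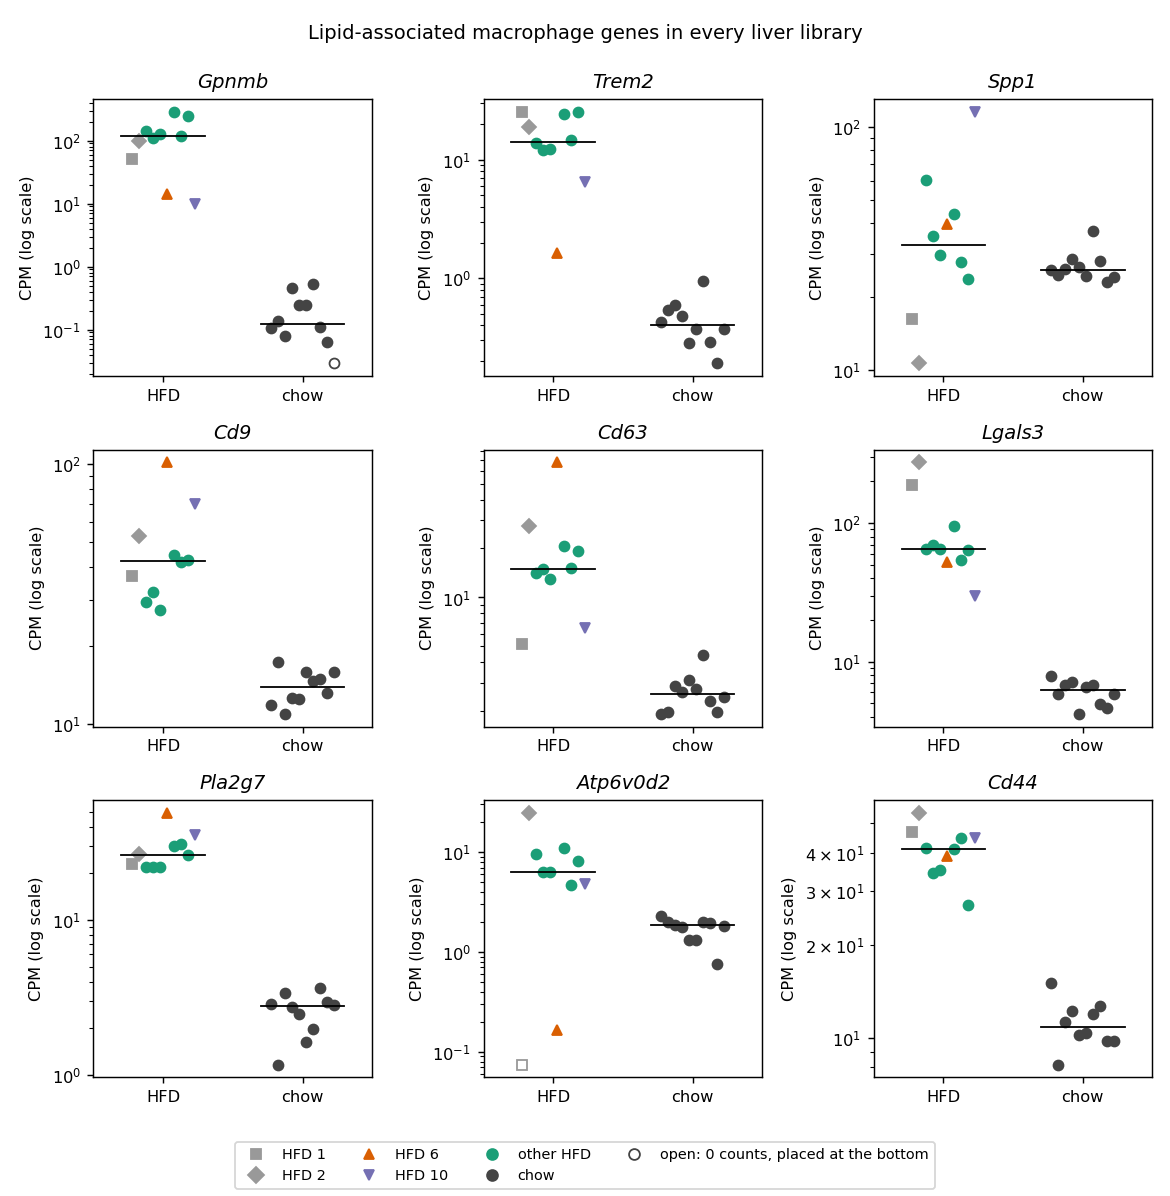
Level of each gene in every liver library, in CPM on a log axis, HFD left and chow right; the line is the median, HFD 1, 2, 6 and 10 have their own symbols, and open symbols are libraries with 0 counts, placed at the bottom. In 7 panels all HFD libraries lie above all chow libraries, and the exceptions are Spp1 and Atp6v0d2.

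Gpnmb encodes a transmembrane glycoprotein of endosomes and lysosomes that macrophages raise under lysosomal stress (ENSMUSG00000029816; chromosome 6, 49036546 to 49070929, plus strand; this and the gene coordinates that follow are on GRCm38). Its lowest, median and highest levels were 9.93, 116 and 289 CPM in HFD libraries, against 0, 0.121 and 0.521 CPM in chow libraries. Even the lowest HFD libraries, HFD 10 at 9.93 CPM and HFD 6 at 14.1 CPM, lay far above the highest chow library. The means were 121 ± 90.6 CPM in HFD and 0.197 ± 0.173 CPM in chow (SD, n = 10 each), a log2 change of 9.21 with a standard error of 0.72. Gpnmb passed the filter through its HFD libraries, since it held 83488 counts there and 108 counts in chow. Chow 10 held 0 counts, which allows up to 0.0508 CPM (3 counts; counting error only). Most low counts in these libraries were even, and if both reads of a pair were counted the limit would be 6 counts, or 0.102 CPM.

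Trem2, the lipid receptor itself (ENSMUSG00000023992; chromosome 17, 48346401 to 48354147, plus strand), was the second most changed gene of the set. In HFD libraries it stood at 1.64, 14.2 and 25.4 CPM (lowest, median and highest), against 0.192, 0.400 and 0.945 CPM in chow libraries. The lowest HFD library was HFD 6, still above the highest chow library, and the next lowest was HFD 10 at 6.47 CPM. The means were 15.5 ± 8.05 CPM in HFD and 0.449 ± 0.212 CPM in chow (SD, n = 10 each), a log2 change of 5.08 with a standard error of 0.41.

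The windows of 250 bases before the RefSeq start of Gpnmb, Trem2 and Spp1 are shown because these genes mark the ends of the set: the largest changes and the smallest. They lie on the plus strand of GRCm38.p6 at chr6:49036268-49036517, chr17:48346151-48346400 and chr5:104434861-104435110 (the more upstream of a pair of Spp1 entries), and capitals mark the motifs found.
Gpnmb: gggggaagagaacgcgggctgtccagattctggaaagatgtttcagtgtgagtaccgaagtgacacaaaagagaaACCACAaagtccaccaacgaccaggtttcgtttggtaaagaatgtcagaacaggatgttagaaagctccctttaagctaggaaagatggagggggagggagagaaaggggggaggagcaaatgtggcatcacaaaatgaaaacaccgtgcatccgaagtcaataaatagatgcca
Trem2: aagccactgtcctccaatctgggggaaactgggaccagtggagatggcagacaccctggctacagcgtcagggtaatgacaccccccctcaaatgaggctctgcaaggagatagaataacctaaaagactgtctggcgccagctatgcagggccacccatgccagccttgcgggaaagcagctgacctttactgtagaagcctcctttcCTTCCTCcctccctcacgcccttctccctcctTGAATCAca
Spp1: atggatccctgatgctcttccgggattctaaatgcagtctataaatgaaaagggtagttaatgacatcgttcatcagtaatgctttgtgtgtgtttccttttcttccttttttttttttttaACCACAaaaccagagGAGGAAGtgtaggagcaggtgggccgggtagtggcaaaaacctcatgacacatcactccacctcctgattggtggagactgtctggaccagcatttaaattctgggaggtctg
The motifs searched on both strands were TGANTCA (a loose form of the AP-1 element, with any middle base), CACGTG (the E-box core of lysosomal genes), TCATGTG (M-box of the MiT family), GAGGAAG (PU.1) and TGTGGT (RUNX). None of them overlapped another in these windows. Gpnmb held a RUNX match, and Spp1 a RUNX and a PU.1 match. Trem2 held a PU.1 match and a match to the loose form TGANTCA, with A as its middle base. The only other matches in the entries of the set were a PU.1 match each in Cd63 and Cd44, and Atp6v0d2 was not among the 8 genes with an entry. Over 32851 promoters of the same length, 6.75% held TGANTCA, 6.02% CACGTG, 3.25% TCATGTG, 10.6% GAGGAAG and 14.1% TGTGGT. A match in such a window is a description of its letters, not a measured site.

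Cd44, the surface receptor for hyaluronan and osteopontin (ENSMUSG00000005087; chromosome 2, 102811141 to 102901665, minus strand), varied least among HFD libraries. The lowest, median and highest levels were 27.1, 41.3 and 54.1 CPM in HFD libraries, against 8.16, 10.8 and 15.0 CPM in chow libraries. The diets did not overlap, and HFD 6 and HFD 10, at 39.1 and 44.6 CPM, lay among the other HFD libraries. The means were 40.8 ± 7.50 CPM in HFD and 11.1 ± 1.94 CPM in chow (SD, n = 10 each), a log2 change of 1.87 with a standard error of 0.13.

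Spp1 encodes osteopontin, a secreted ligand of integrins and CD44 (ENSMUSG00000029304; chromosome 5, 104435118 to 104441050, plus strand), and it was the gene of the set in which the diets overlapped most. Its lowest, median and highest levels were 10.6, 32.6 and 115 CPM in HFD libraries, against 23.1, 25.9 and 37.3 CPM in chow libraries. HFD 10 was highest, HFD 2 and HFD 1 (10.6 and 16.2 CPM) lay below every chow library, 4 HFD libraries lay within the chow range and 4 above it. The means were 40.2 ± 30.0 CPM in HFD and 26.8 ± 4.08 CPM in chow (SD, n = 10 each). The log2 change was 0.59 with a standard error of 0.29 over all libraries, 0.84 without HFD 1 and HFD 2, 0.22 without HFD 6 and HFD 10, and 0.26 without HFD 10 alone. HFD 10 also held the highest HFD level of Sox9, a bile duct cell gene, at 11.2 CPM, against 2.73 to 6.98 CPM in the other HFD libraries and 1.62 to 4.40 CPM in chow libraries. The bile duct genes Krt19, Krt7 and Epcam were not highest there, at 0.930, 0.576 and 1.66 CPM in HFD 10. Their highest HFD levels were 1.23 CPM in HFD 8, 0.978 CPM in HFD 4 and 2.19 CPM in HFD 3. The summed level of the bile duct markers was 9.24 to 27.0 CPM in HFD libraries, highest in HFD 10, where 11.2 CPM of it was Sox9. In chow libraries the sum was 13.5 to 41.7 CPM, highest in chow 7, which was also the highest chow library for Spp1. The part of these markers in the Spp1 level was not tested.

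Lgals3 encodes galectin-3, a secreted lectin that binds glycans of damaged membranes and dying cells (ENSMUSG00000050335; chromosome 14, 47367751 to 47386160, plus strand). In HFD libraries it stood at 29.6, 65.1 and 276 CPM (lowest, median and highest), against 4.19, 6.23 and 7.93 CPM in chow libraries. HFD 2 and HFD 1, at 276 and 187 CPM, were far above the remaining HFD libraries, which ran up to 96.1 CPM, and HFD 10 was lowest. The means were 95.8 ± 76.3 CPM in HFD and 6.06 ± 1.19 CPM in chow (SD, n = 10 each). The log2 change was 3.97 with a standard error of 0.34, and 3.38 without HFD 1 and HFD 2.

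Pla2g7 encodes a secreted phospholipase of macrophages that inactivates platelet-activating factor and travels on lipoproteins (ENSMUSG00000023913; chromosome 17, 43568098 to 43612201, plus strand). Its lowest, median and highest levels were 21.8, 26.4 and 49.3 CPM in HFD libraries, against 1.17, 2.79 and 3.62 CPM in chow libraries. After Cd44 it was the steadiest of the genes among HFD libraries, with HFD 6 as the highest and HFD 10 next at 35.5 CPM. The means were 28.7 ± 8.53 CPM in HFD and 2.57 ± 0.766 CPM in chow (SD, n = 10 each), a log2 change of 3.48 with a standard error of 0.21.

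Cd9, a tetraspanin that organises surface receptors and integrins (ENSMUSG00000030342; chromosome 6, 125460266 to 125494791, minus strand), was lowest, median and highest at 27.5, 42.3 and 102 CPM in HFD libraries, against 10.9, 13.9 and 17.3 CPM in chow libraries. HFD 6 was highest and HFD 10 next at 70.0 CPM, the reverse of their place in Gpnmb. Cd63, the tetraspanin of late endosomes and lysosomes (ENSMUSG00000025351; chromosome 10, 128900989 to 128912822, plus strand), was at 5.20, 15.0 and 67.9 CPM in HFD libraries, against 1.92, 2.53 and 4.40 CPM in chow libraries. HFD 6 was again highest, but here HFD 10 was low, at 6.49 CPM, next to HFD 1 at 5.20 CPM. In both genes every HFD library lay above every chow library. Cd9 averaged 48.0 ± 22.6 CPM in HFD and 13.9 ± 2.07 CPM in chow, and Cd63 averaged 20.4 ± 17.9 CPM in HFD and 2.63 ± 0.737 CPM in chow (SD, n = 10 each). The log2 change of Cd9 was 1.79 with a standard error of 0.20, and 1.59 without HFD 6, the library that moved it most. The log2 change of Cd63 was 2.96 with a standard error of 0.36, and 2.53 without HFD 6.

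Atp6v0d2 encodes an isoform of a membrane-sector subunit of the vacuolar proton pump that acidifies lysosomes, known from osteoclasts and macrophages (ENSMUSG00000028238; chromosome 4, 19876841 to 19922605, minus strand). The lowest, median and highest levels were 0, 6.35 and 24.8 CPM in HFD libraries, against 0.766, 1.85 and 2.29 CPM in chow libraries. In 8 HFD libraries it lay above every chow library, at 4.63 to 24.8 CPM, while HFD 1 and HFD 6 lay below every chow library. HFD 6 held 12 counts (0.164 CPM), whereas HFD 1 held 0 counts, which at its depth allows up to 0.866 CPM, or 1.73 CPM at 6 counts, both within the chow range. The means were 7.58 ± 7.02 CPM in HFD and 1.71 ± 0.448 CPM in chow (SD, n = 10 each). The log2 change was 2.13 with a standard error of 0.52, and from 1.78 without HFD 2 to 2.28 without HFD 6. The common isoform gene Atp6v0d1 was at 59.2 to 87.4 CPM in HFD libraries and 76.3 to 106 CPM in chow libraries, and did not pass the test (log2 change −0.15, edgeR quasi-likelihood adjusted p = 0.308).

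Within the HFD group the genes did not move as a block. HFD 6 was the lowest library for Trem2 and the next lowest for Gpnmb, Lgals3 and Atp6v0d2, yet the highest for Cd9, Cd63 and Pla2g7. Relative to the HFD median on the log2 scale, HFD 6 was at −3.08 for Trem2 and −3.04 for Gpnmb, and at 2.17 for Cd63 and 1.26 for Cd9. HFD 10 was lowest for Gpnmb and Lgals3 and highest for Spp1. HFD 7 was the library most evenly high, within the top 4 HFD libraries for 8 of the 9 genes, Cd44 being the exception.

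**Figure D2:**
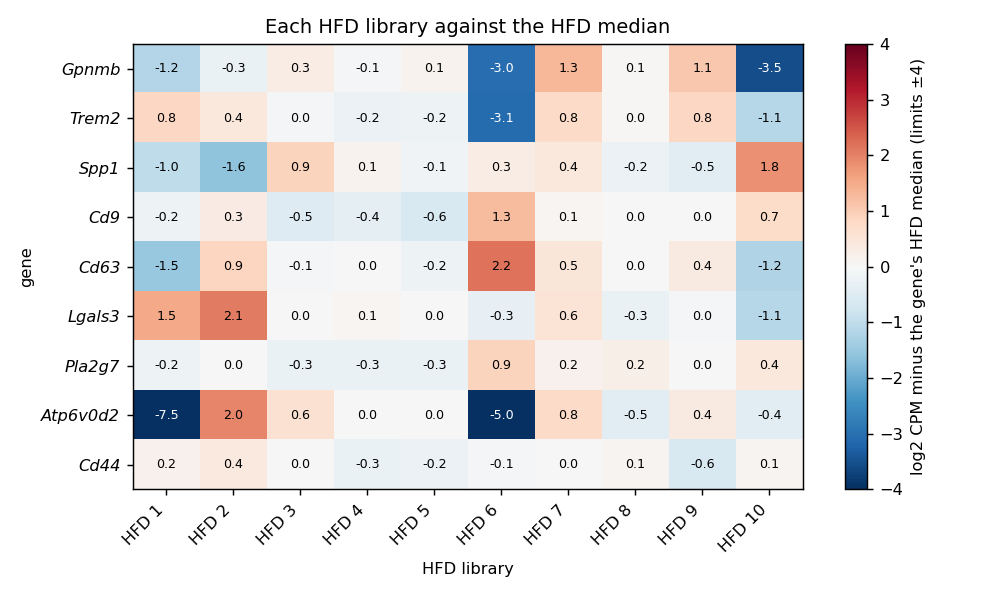
Each HFD library against the HFD median of the gene, as log2 CPM minus that median; rows are the genes, columns the 10 HFD libraries, the colour scale stops at 4 in either direction, and Atp6v0d2 in HFD 1 rests on 0 counts with a prior count. HFD 6 is low for Gpnmb (−3.0) and Trem2 (−3.1) and high for Cd63 (2.2).

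These libraries differed in other markers too. In HFD 10, Mmp12, a macrophage elastase, was at 1.17 CPM, against 19.9 to 50.4 CPM in the other HFD libraries, and S100a8, a neutrophil gene, was at 120 CPM, its highest value. In HFD 6 the adaptor Tyrobp was at 11.6 CPM, no higher than in chow libraries (9.33 to 13.8 CPM), against 32.1 to 123 CPM in the other HFD libraries. The summed level of the 10 macrophage markers was also lowest in HFD 6, at 491 CPM, and highest in HFD 2, at 1093 CPM, against 148 to 279 CPM in chow libraries. Their part in the levels of the genes was not tested.

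The spread of the set was wider in HFD livers than in chow livers. The median over the 9 genes of the SD of log2 CPM was 0.959 within HFD and 0.359 within chow, beside 0.831 and 0.263 over all tested genes. Atp6v0d2 and Gpnmb varied most within HFD (SD 2.93 and 1.62) and Cd44 least (0.277). The value for Atp6v0d2 rests in part on HFD 1, whose 0 counts take their log2 level from the prior count, and was 1.93 without it. Pla2g7 was the only gene of the set with the smaller SD in HFD, at 0.376 against 0.497 in chow.

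Gpnmb was compared with each of the other 8 genes across the 10 HFD libraries, on log2 CPM, as a measure that does not use the diet contrast. The closest was Trem2, with Pearson r = 0.77 (permutation p = 0.0127, adjusted over 8 relations 0.0926) and Spearman rho = 0.48 (permutation p = 0.166, adjusted 0.443). Cd9 and Pla2g7 ran the other way, with r = −0.71 and −0.64 (permutation p = 0.0231 and 0.0467, adjusted 0.0926 and 0.124) and rho = −0.45 and −0.38 (adjusted permutation p = 0.443 for each). None of the 8 relations passed after adjustment. With HFD 1 and HFD 2 kept, all of these rested on HFD 6 and HFD 10, the libraries farthest from the Gpnmb median. Without HFD 6 and HFD 10, r was 0.15 for Trem2, 0.16 for Cd9 and 0.41 for Pla2g7 (n = 8, exact permutation p = 0.723, 0.710 and 0.320). Without HFD 1 and HFD 2 the relation to Trem2 passed for r but not for rho (r = 0.87, rho = 0.88, n = 8, adjusted exact permutation p = 0.0225 for r and 0.0579 for rho). The same held for Lgals3 (r = 0.84, rho = 0.67, adjusted exact permutation p = 0.0192 for r and 0.222 for rho). HFD 6 and HFD 10 were still among these 8 libraries. With those left out as well, r was 0.96 and rho 0.77 for Trem2 (unadjusted exact permutation p = 0.025 for r). There r was 0.65 for Lgals3, 0.66 for Cd9 and 0.49 for Pla2g7 (unadjusted exact permutation p = 0.156, 0.204 and 0.347).

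A closer pair was Cd9 and Pla2g7, found when all 36 pairs of the genes were compared, a step chosen after seeing the data. Across the 10 HFD libraries r was 0.95 (permutation p = 0.00012, adjusted over 36 pairs 0.00432) and rho 0.88 (permutation p = 0.00147, adjusted 0.0529). It was the only pair to pass for r, and no pair passed for rho. Without HFD 6 and HFD 10, the libraries farthest from the Cd9 median, r was 0.79 and rho 0.76 (n = 8, exact permutation p = 0.0247 for r). Without HFD 1 and HFD 2, r was 0.97 and rho 0.86 (n = 8, adjusted exact permutation p = 0.0196 and 0.193). In chow livers the same pair had r = −0.65 and rho = −0.48 (n = 10, adjusted permutation p = 0.233 and 0.536), and the difference between the diets was not tested. Levels of genes in 1 library share its scaling factor and depth.

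**Figure D3:**
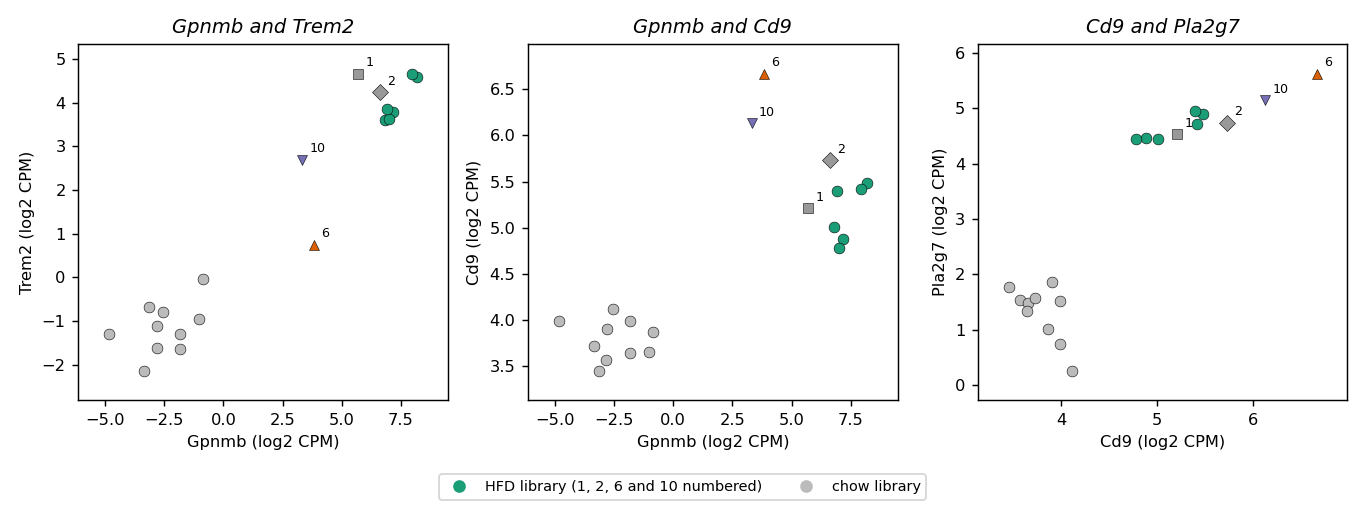
Log2 CPM of Gpnmb and Trem2, of Gpnmb and Cd9, and of Cd9 and Pla2g7, with 1 point per library, HFD coloured and chow grey. HFD 6 and HFD 10 stand apart in Gpnmb, and the Cd9 and Pla2g7 points of the HFD libraries rise together (r = 0.95).

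Levels between genes were compared per kilobase of gene length. In HFD livers the order of medians was Lgals3 (35.0 CPM per kilobase), Cd9 (20.7), Spp1 (19.8), Gpnmb (17.8), Pla2g7 (9.09), Cd44 (6.10), Cd63 (4.08), Trem2 (2.86) and Atp6v0d2 (2.34). Cd9, Spp1 and Gpnmb could not be ordered beyond their spread, since Cd9 exceeded Spp1 in 5 of 10 libraries and Spp1 exceeded Gpnmb in 5 of 10. The step below Pla2g7 was the only one that every HFD library showed. In chow livers the order was Spp1 (15.7), Cd9 (6.79), Lgals3 (3.35), Cd44 (1.59), Pla2g7 (0.960), Cd63 (0.688), Atp6v0d2 (0.681), Trem2 (0.0809) and Gpnmb (0.0186 CPM per kilobase). There every library showed each step except those from Pla2g7 to Cd63 (7 of 10) and from Cd63 to Atp6v0d2 (6 of 10). Gpnmb thus held the lowest place in chow livers and the fourth in HFD livers. With the deposited FPKM the chow order was the same, while in HFD livers Cd9, with a median of 24.3 FPKM, came after Spp1 (26.3) and Gpnmb (24.5).

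**Figure D4:**
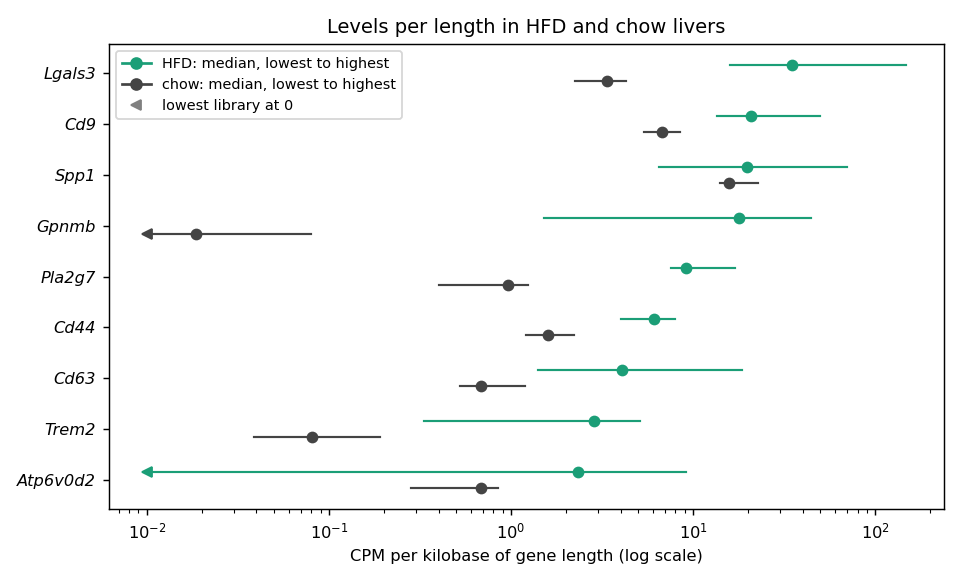
Level per kilobase of gene length, in CPM per kilobase on a log axis, for HFD (upper line of each pair) and chow (lower line); points are medians over 10 libraries, lines run from the lowest to the highest library, and arrowheads mark a lowest library at 0. Gpnmb has the lowest median in chow (0.0186) and the fourth in HFD (17.8).

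Macrophage genes in general were higher in HFD livers as well. Of the 10 tested macrophage markers 8 were higher at an adjusted p under 0.05 in edgeR's quasi-likelihood test (13% of all tested genes were higher) and none lower (7.05% of all tested genes were lower), with a median log2 change of 1.74. Without HFD 1 and HFD 2, 10 of 10 were higher, while higher calls over all genes went from 1886 to 2651. Of the 8 Kupffer cell markers 5 were higher, with a median of 1.25, and Clec4f, Cd163 and C6 were not called (edgeR adjusted p = 0.137, 0.431 and 0.443). Cd163, the haemoglobin scavenger receptor, had medians of 2.42 CPM in HFD and 20.4 CPM in chow; 9 HFD libraries fell short of the chow minimum, while HFD 6 was at 86.4 CPM. Without HFD 6, or with DESeq2 or limma voom, 1 Kupffer cell marker was called lower, Cd163. Of the osteoclast markers, 5 of 8 were tested and 1 was higher, Itgb3; Acp5 was at 45.3 to 95.9 CPM in HFD libraries and 67.2 to 99.2 CPM in chow libraries. Neutrophil markers, 5 of 5 tested, were higher, with summed levels of 20.6 to 330 CPM in HFD libraries and 3.71 to 4.96 CPM in chow libraries. Among other cell types, 3 of 7 tested lymphocyte, 2 of 6 dendritic cell and 4 of 9 stellate cell and fibroblast markers were higher. Their median log2 changes were 1.42, 1.25 and 0.51. Of 6 tested bile duct markers 1 was higher, but the median log2 change of that list was −0.46. Of 6 sinusoidal endothelium markers (median 0.01) and 1 tested adipocyte marker 0 were called, and 2 of 7 hepatocyte markers were lower (median −0.68).

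Levels per macrophage marker were set beside the levels per library, a step chosen after seeing the data. Divided by Cd68, a lysosomal glycoprotein of macrophages, Gpnmb was at 0.283 to 3.63 (median 1.88) in HFD libraries and 0 to 0.0352 (median 0.00949) in chow libraries. It lay above every chow library in all 10 HFD libraries with Cd68, Lyz2, Adgre1 or Csf1r as the divisor. Trem2 and Lgals3 did so in 9 or 10 HFD libraries and Pla2g7 in 8 to 10, depending on the divisor. Spp1 did so in 0 to 3 HFD libraries, and its HFD median was below its chow median with each of the 4 divisors. For Cd9, Cd63, Cd44 and Atp6v0d2 the count depended on the divisor: Cd44 lay above every chow library in 0 HFD libraries per Lyz2 and in 10 per Csf1r, and Cd63 in 1 per Lyz2 and in 9 per Csf1r. The divisors themselves differed between the diets, by log2 changes of 0.46 for Csf1r, 1.05 for Adgre1, 1.95 for Cd68 and 2.55 for Lyz2.

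The genes around the set were examined as 9 lists, described by counts and medians without a test of the lists. Among the 9, the TREM2 signalling list had the largest share of its tested genes called. Of 13 tested relatives, adaptors, kinases and shedding enzymes of the receptor, 12 were higher and 0 lower (13% and 7.05% of all tested genes). The 1 not called was the shedding enzyme Adam10 (log2 change 0.28, edgeR adjusted p = 0.301), and Trem1, Trem3 and Treml1 were not tested. The list's median log2 change was 1.56. Macrophage markers (8 of 10) and neutrophil markers (5 of 5 tested) were higher as well. Whether the rise is particular to TREM2 signalling was not tested. Treml2, a TREM family receptor, was at 1.23 to 8.73 CPM in HFD libraries and 0.128 to 0.818 CPM in chow libraries (log2 change 3.25, edgeR adjusted p = 9.07e-07). Tyrobp, the adaptor, rose by 2.10 in log2, the guanine exchange factor Vav1 by 1.91, and the kinases Btk and Syk by 1.80 each (edgeR adjusted p = 1.05e-05, 4.44e-07, 0.000199 and 3.64e-08). Syk separated the diets fully, at 13.9 to 30.1 CPM in HFD libraries and 3.45 to 7.76 CPM in chow libraries.

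Among 27 tested other genes of lipid-associated macrophages, 16 were higher and 1 was lower (13% and 7.05% of all tested genes). The list's median log2 change was 0.92. Mmp12 was at 1.17 to 50.4 CPM in HFD libraries and 0.163 to 0.816 CPM in chow libraries (log2 change 6.36, edgeR adjusted p = 4.29e-09). Clec7a, a receptor for fungal glucans, Capg, an actin-capping protein, and Lpl, lipoprotein lipase, rose by 4.56, 3.99 and 3.28 in log2 (edgeR adjusted p = 5.45e-05, 1.90e-07 and 1.32e-06). Capg and Lpl leaned on HFD 1 and HFD 2, without which their log2 changes were 3.30 and 2.59. The rise of Clec7a leaned most on HFD 1 and HFD 2, at 269 and 481 CPM; without HFD 2 its log2 change was 3.75, and without both 2.87. The lower gene was Apoe (log2 change −3.66, edgeR adjusted p = 0.0155), whose change was −6.55 without HFD 6; for this gene above all, diet and a possible genotype difference cannot be told apart.

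Of 19 other tested genes for subunits of the proton pump 2 were higher and 0 lower, a share near the 13% and 7.05% of all tested genes, with a median log2 change of 0.04. Without HFD 1 and HFD 2, 6 were higher, while higher calls over all genes went from 1886 to 2651. Those called were Atp6v1b2, at 76.9 to 119 CPM in HFD libraries and 43.0 to 58.2 CPM in chow libraries (log2 change 0.82, edgeR adjusted p = 2.11e-06), and Atp6v1g1 (log2 change 0.61, edgeR adjusted p = 0.0196). Of the 4 MiT/TFE factors, the transcription factors that drive lysosomal genes and Gpnmb, 3 were higher (13% of all tested genes). Tfec rose by 1.72, Mitf by 0.63 and Tfe3 by 0.45 in log2 (edgeR adjusted p = 0.000104, 0.0313 and 0.0376). Mitf lost its call without chow 2, 3, 5, 7 or 9 (edgeR adjusted p = 0.0532 to 0.0562), and Tfe3 without HFD 6 or any chow library but chow 6 (edgeR adjusted p = 0.0507 to 0.0624). Tfeb did not pass (log2 change 0.84, edgeR adjusted p = 0.106), and stood at 26.0 and 21.3 CPM in HFD 1 and HFD 2, against 2.37 to 5.79 CPM in the other HFD libraries and 3.34 to 5.71 CPM in chow libraries.

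**Figure D5:**
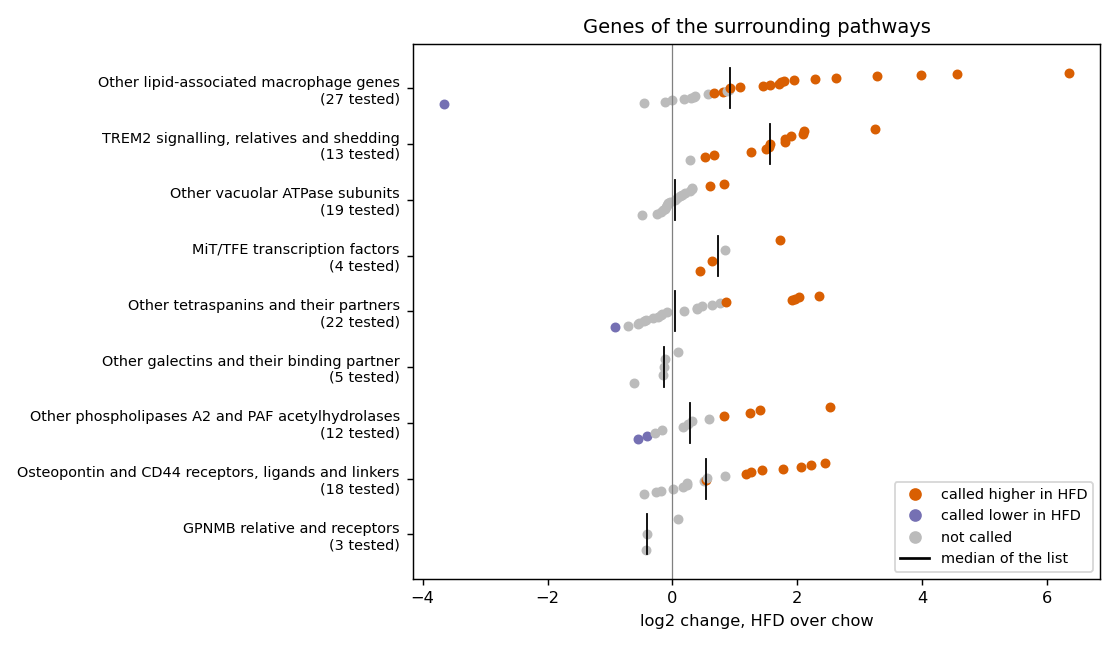
Log2 change, HFD over chow, of every tested gene in 9 lists around the set; colours mark genes that passed the test in either direction, and the line is the list's median. The TREM2 signalling genes lie to the right, with a median of 1.56, and the proton pump subunits around 0.04.

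Of 22 other tetraspanins and partners, relatives of Cd9 and Cd63, 5 were higher and 1 lower (13% and 7.05% of all tested genes), with a median log2 change of 0.04. Without HFD 1 and HFD 2, 10 were higher and 1 lower, while higher calls over all genes went from 1886 to 2651. The leukocyte tetraspanins Cd53 and Cd37 rose by 2.03 and 1.97, Tspan13 rose by 1.92, Tspan32 rose by 2.35 and Tspan33 fell by 0.92 on the log2 scale (edgeR adjusted p = 5.55e-09, 0.000203, 0.00127, 0.00139 and 0.0028). Cd53 was at 25.4 to 64.6 CPM in HFD libraries and 7.42 to 12.2 CPM in chow libraries; Tspan32 leaned on HFD 1, without which its change was 1.80. Of 5 tested galectins and their binding partner 0 were called in either direction, with a median of −0.14, by edgeR at the adjusted threshold. At an unadjusted p under 0.05 there was 1, Lgals9 (log2 change −0.61, edgeR adjusted p = 0.06, named after its values were seen), and DESeq2 and limma voom each called 1 lower.

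Around Pla2g7, 4 of 12 tested phospholipases A2 and platelet-activating factor genes were higher and 2 lower (13% and 7.05% of all tested genes). The list's median log2 change was 0.29. Ptafr, the receptor for platelet-activating factor, was at 1.88 to 7.14 CPM in HFD libraries and 0.538 to 1.12 CPM in chow libraries (log2 change 2.53, edgeR adjusted p = 7.55e-07). Lpcat2, which makes that lipid, Pla2g4a, the cytosolic phospholipase A2, and Pafah1b3, a subunit of an intracellular acetylhydrolase, rose by 1.41, 1.24 and 0.83 in log2 (edgeR adjusted p = 0.0024, 0.00179 and 0.00148). Pla2g6, a calcium-independent phospholipase, fell by 0.55 on the log2 scale (edgeR adjusted p = 0.0103).

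Around Spp1 and Cd44 the median log2 change was 0.54. Of 18 tested receptors, ligands and linkers, 8 were higher and 0 lower (13% and 7.05% of all tested genes). The proteases that act on them, Mmp14 and Mmp9, rose by 2.45 and 2.21 in log2 (edgeR adjusted p = 0.00277 and 0.000254). Mmp14 leaned on HFD 1, at 512 CPM, without which its log2 change was 1.69, and 1.02 without HFD 2 as well. The integrin chains Itga4 and Itgb3, receptors of osteopontin, rose by 2.06 and 1.77 in log2 (edgeR adjusted p = 0.000252 and 0.00318). Itgb3 leaned on HFD 6 and HFD 10, without which its log2 change was 1.16, and 1.32 without HFD 6 alone. Srgn, a proteoglycan that binds CD44, rose by 1.44 (edgeR adjusted p = 4.56e-05). Around Gpnmb, its melanosomal relative Pmel and its reported binding partners Sdc4 and Egfr were not called in either direction by edgeR, DESeq2 or limma voom, and none had an unadjusted p under 0.05 in edgeR. Pmel was at 0 to 0.384 CPM in HFD libraries and 0.195 to 0.511 CPM in chow libraries. Sdc4 and Egfr had log2 changes of 0.08 and −0.41 (edgeR adjusted p = 0.859 and 0.198), and the sign of Sdc4 turned without HFD 6 (−0.21).

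The genes whose pattern over the 10 HFD libraries was most like the mean of the set were ranked by Pearson r among 11491 genes, as a description. Cd68 came first (r = 0.95) and Tnfaip2, a gene induced by tumour necrosis factor, next (r = 0.93), followed by Mplkip, Tatdn3, Speg, Rgl1, Ifit3b, Traf5, Car1 and Sh3glb2 (r = 0.93 to 0.89). This order depended on 2 libraries: without HFD 1 and HFD 2, 0 of these 10 genes remained among the first 10, and with Spearman rho 3 did, Tnfaip2, Rgl1 and Cd68. It also depended on Atp6v0d2, whose 0 counts in HFD 1 take their log2 level from the prior count: with the mean of the other 8 genes, a step chosen after seeing the data, Cmpk2 came first (r = 0.85) and 1 of the 10 remained, Cd68 (r = 0.81).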

How the data were processed

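Per the labels, total RNA was extracted from mouse liver with Trizol; per the submitters' processing notes, reads were cleaned with fastp and the build was mm10. The authors deposited a table of whole-number counts per gene and library, and a table of FPKM, which equals the count scaled by the column total and 1 length per gene. How reads were aligned and counted, with which annotation and strandedness, is not given in the sources used here. Between 72.5% and 89.0% of the counts from 1 to 20 in a library were even. Of the 55401 gene IDs, 260 were not matched to GENCODE M21 (GRCm38).

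Counts were fitted with edgeR 4.0.16 in R 4.3.3 over all 20 libraries: TMM scaling, filterByExpr at a count of 10 and a total of 15, diet as the only term of a robust quasi-likelihood model, two-sided tests and Benjamini-Hochberg adjustment over 14542 genes, with calls at an adjusted p under 0.05. The test was also run on simulated counts with the spread of the chow libraries, which does not cover the wider spread within HFD. Standard errors are the log2 change over the root of F; log2 CPM used a prior count of 2. Correlations used 100000 permutations, or exact ones with 8 libraries. The members, lists and tests were chosen with earlier results of these data known. Lists name up to 5 called genes of largest change with a mean of at least 1 CPM, and every tested gene of lists of at most 6. Alternatives were RLE scaling, library totals, no filter, DESeq2 1.42.0, limma voom 3.58.1, a replicate block and libraries left out. Replicate numbers did not pair the libraries. No 2 libraries agreed within sampling noise. Promoters came from RefSeq (GRCm38.p6). Figures used matplotlib 3.10.9.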

Additional observations from a re-analysis of the deposited data

Results flagged for a closer look

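Among 18 groups, 9 genes in each diet, 7 had an extreme library whose gap to the next was too large a part of the range by Dixon's criterion for 10 libraries. Chance gives such a gap in about 1 of 20 groups of normally distributed values. Here the criterion was applied to CPM without logs, and the groups share libraries, so 7 is not set against that share. The 7 extremes were all high values. In HFD livers these were Spp1 in HFD 10 at 115 CPM, next 60.5 CPM, Cd63 in HFD 6 at 67.9 CPM, next 27.6 CPM, Pla2g7 in HFD 6 at 49.3 CPM, and Atp6v0d2 in HFD 2 at 24.8 CPM. HFD 2 held 142 counts of Atp6v0d2 and 94.4% mitochondrial counts. In chow livers all 3 were the same library, chow 7: Trem2 at 0.945 CPM, Spp1 at 37.3 CPM and Cd63 at 4.40 CPM. Chow 7 also held the highest level in all libraries of the bile duct genes Krt19 (9.15 CPM) and Krt7 (2.64 CPM), and Epcam there was at 3.84 CPM. Their part in the chow 7 values was not tested.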

How the results depend on the processing

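The log2 changes of all 9 genes kept their sign under every alternative run; leaving out each library in turn gave 8.97 to 9.51 for Gpnmb, 4.97 to 5.27 for Trem2, 0.26 to 0.73 for Spp1 and 1.78 to 2.28 for Atp6v0d2. The changes that moved by over 1.5 times were those of Atp6v0d2 with voom (1.30) and of Lgals3 with library totals (3.36) and without HFD 1 and HFD 2 (3.38). Over all genes 1886 were higher and 1025 lower. These counts were 507 and 93 with library totals and 913 and 661 with a replicate block, whose numbers do not pair the libraries (correlations −0.11 to 0.13). Without HFD 1 and HFD 2, 2651 were higher and 1539 lower, so calls rose over all genes and not only in the lists. Leaving out single libraries gave 1624 to 2206 higher and 706 to 1208 lower. Higher calls made up 64.8% of calls, 84.5% with library totals, 76.7% without the filter (which moved the median of all genes to 0.13) and 48.7% with voom. With library totals, genes called higher were 10 of other lipid-associated macrophage genes, 7 of TREM2 signalling, 0 of pump subunits, 1 of MiT/TFE, 1 around Pla2g7 and 3 around Spp1 and Cd44, and 0 were lower in the first, the tetraspanins and around Pla2g7. MiT/TFE calls fell to 1 without the filter, with voom and with the replicate block, and were 1 to 3 with single libraries left out. Without HFD 1 and HFD 2, 6 pump subunits and 10 tetraspanins were higher, and 2 galectins, 1 gene around Pla2g7 and 2 around Spp1 and Cd44 lower. DESeq2 called 4 pump subunits and 8 tetraspanins higher and 1 galectin lower, and voom 2 tetraspanins and 1 galectin lower. Without the filter 1 galectin was higher, and around Pla2g7 1 gene was lower without the filter, with RLE scaling and with the replicate block. Leaving out single libraries gave 5 to 8 tetraspanins higher and 1 to 2 lower, 0 to 1 galectin lower and 1 to 2 genes around Pla2g7 lower. Within HFD, r with Gpnmb rose to 0.87 for Trem2 and 0.84 for Lgals3 without HFD 1 and HFD 2. It turned without HFD 6 and HFD 10 for Spp1 (0.52), Cd9 (0.16), Pla2g7 (0.41) and Lgals3 (−0.50), on the CPM scale for Lgals3 (−0.0523) and Cd63 (−0.20), and without HFD 1 and HFD 2 for Cd63 (−0.0563). The sign of Sdc4 turned with voom (−0.25), with the replicate block (−0.0838), and without HFD 6 and HFD 10 (−0.29) or HFD 6 alone (−0.21); single libraries left out gave −0.21 to 0.20. The causes were not tested. Depth limits HFD 1 and HFD 2, where 3 counts stand for 0.866 and 0.524 CPM.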

Other observations

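Adipoq, an adipocyte hormone, was at 5.88 CPM in HFD 9 and 1.45 CPM in HFD 8, against 0 to 0.0822 CPM in the other HFD libraries and 0 to 0.195 CPM in chow libraries, and Plin1, an adipocyte droplet protein, was at 3.13 CPM in HFD 9. The summed level of the 5 adipocyte markers was 16.1 CPM in HFD 9 and 17.6 CPM in HFD 6, where 17.5 CPM was Cidec, a lipid droplet protein, and 0.289 to 4.74 CPM in the other HFD libraries, against 1.57 to 3.69 CPM in chow libraries. HFD 9 was also among the highest libraries for Gpnmb and Trem2, while HFD 8 held place 5 among HFD libraries for both. HFD 7, highest for Gpnmb, and HFD 1, highest for Trem2, held 0 counts of Adipoq. The part of adipose tissue was not tested. Among genes ranked by likeness to Gpnmb alone within HFD, a step chosen after seeing the data, Plau, a plasminogen activator, came first (r = 0.93), and the hepatocyte genes Ces1f, Hsd3b5 and Ces1e were among the first 10 (r = 0.93, 0.92 and 0.91). None of those 10 remained without HFD 1 and HFD 2.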
